A study of Sus scrofa with 8 samples.

Results

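The genes described here are the 87 genes of a pig heart expression table that its annotation column calls long noncoding RNA (lncRNA) and whose mean level was at least 5 FPKM over 8 libraries. They were chosen by that mean level from 5605 lncRNA-annotated genes among 30550 genes. FPKM is the number of fragments assigned to a gene, scaled by gene length and by a library factor. The mean is over both groups together. The levels are given as a description. The rule does not use the difference between the groups, but it was set with earlier results of these data known.

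The libraries were made from the right ventricle of pigs in which 1 copy of PKP2 was knocked out (PKP+/- in the protocol, PKP2_het below, 4 libraries) and of wild-type pigs (WT, 4 libraries). Plakophilin 2, the product of PKP2, belongs to the desmosomes that hold heart muscle cells together. The series offers the animals as models of arrhythmogenic cardiomyopathy, in which heart muscle is replaced by fat and scar. The cell type label reads cardiomyocytes, but the protocol extracts RNA from tissue. They give no age, breed, sex, litter or allele, and do not say that each library is a separate animal, so p-values speak only of the spread between libraries, and ancestry cannot be told apart from genotype.

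A lncRNA is an RNA, longer than the small RNAs, for which no long open reading frame is annotated. Some act in the nucleus, as scaffolds of nuclear bodies or as regulators of genes close to where they are transcribed, and others arise beside a promoter, on the opposite strand, as a product of the same open chromatin. In the heart such RNAs are known for their part in hypertrophy, in imprinting and in the splicing and stress responses of muscle cells, and some annotated lncRNAs turn out to encode small membrane proteins.

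Library depth ran from 23637697 to 31313628 assigned fragments, and the 87 genes together took 0.464% to 0.725% of them. Mitochondrial genes took 21.1% to 52.1%. The highest share was that of PKP2_het replicate 3, a library that lay far from the others in a principal component analysis. PKP2 itself measured 45.4, 40.7, 24.6 and 45.9 FPKM in PKP2_het replicates 1 to 4 and 52.9, 62.2, 61.1 and 72.8 FPKM in the WT libraries, without overlap (log2 fold change -0.69, two-sided exact permutation p = 0.0286, the smallest that 70 relabellings allow). In the fit across all genes used below, the limma adjusted p of PKP2 was 0.164, so PKP2 was not called there. Without PKP2_het replicate 3 the value was -0.48, and without WT replicate 4 it was -0.61. Each had an exact permutation p of 0.0571, which is above the smallest that 3 against 4 libraries allow. All 8 cardiomyocyte markers were detected, with summed levels of 18129 to 24122 FPKM in PKP2_het and 19205 to 20719 FPKM in WT. Summed atrial markers (NPPA, MYL7 and MYL4) ranged from 8.81 to 646 FPKM in PKP2_het and from 5.98 to 1164 FPKM in WT. Of 12 marker lists, the fast skeletal muscle list alone had sums that did not overlap, 0.646 to 2.93 FPKM in PKP2_het and 5.66 to 55.6 FPKM in WT. Of its 5 genes, 1 was at 0 in every library. Only 1 of the 5 passed the filter of the limma test used below, where it was called lower (log2 fold change -2.95). Voom on fragments recovered from the FPKM values, an alternative analysis used below, called 0 genes of this list. In bulk tissue, fewer cells of a type and less RNA per cell cannot be told apart, and the part of tissue makeup in the results below was not tested.

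The label lncRNA was checked against the names and protein matches in the same table. All 87 genes matched RefSeq's Sscrofa11.1 table with the same start and end, and RefSeq also gives each of them the biotype lncRNA. Yet 27 of them carry the symbol of a protein gene, among them GSN (gelsolin, which severs actin filaments), EIF4B (a translation initiation factor), SEM1 (a small proteasome subunit), POMP (a proteasome assembly factor), HNRNPU (a nuclear RNA-binding protein), CD99 (a cell surface glycoprotein) and MARC2 (a molybdenum enzyme of mitochondria). SEM1 has a second row, annotated as protein-coding, at a mean of 1.24 FPKM. Another 13 carry a placeholder name (starting with LOC) but a Swiss-Prot match, and 47 have a placeholder name and no protein match. The genes are therefore called lncRNA-annotated below, with these 3 kinds kept apart where it matters.

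Of the 13 placeholder genes with a protein match, 5 matched small proteins of other mammals. These were LOC110257075 (FAM240C), LOC100519283 (SMIM30, a small integral membrane protein), LOC100524915 (SMIM26, likewise), LOC100515290 (C4orf3, a micropeptide that regulates the calcium pump of the sarcoplasmic reticulum) and LOC100514147 (SPAAR, a lysosomal polypeptide that regulates amino acid signalling). A further 4 matched the protein of their own nearest gene, namely KPNA1, SEC24A, DCLRE1A and PARP4. LOC102159074 matched a retroviral gag-pol protein and LOC110256489 a LINE-1 protein, LOC106504299 matched SERPINB6 and LOC110258853 matched SNRPB2.

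Names of well-studied lncRNAs were almost absent. Of lists of nuclear, imprinted, heart and small RNA host lncRNA genes, only MEG3, an imprinted lncRNA, and TAF1D, a host of small nucleolar RNAs, had a row of that name. MEG3 averaged 0.698 FPKM, below the minimum, and TAF1D is annotated as protein-coding at 5.67 FPKM. Other known lncRNAs could be among the placeholder names, which were not matched by sequence.

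The 87 genes were mostly of moderate level. Their means ran from 5.01 to 179 FPKM, with a median of 13.3, and 75 of them had at least 100 fragments in every library. The exonic length of the gene models ranged from 343 to 10263 bases with a median of 1358 and made up a median of 21.4% of the gene's span. Genes with a protein symbol were longer (median 2663 bases) than placeholder genes (948 bases). They lay on many chromosomes, with 10 on chromosome 6, 9 on chromosome 1, 9 on chromosome 2 and 3 on unplaced scaffolds. Just inside the threshold were LOC110258853 (5.16 FPKM), LOC100621455 (5.08 FPKM) and LOC100738653 (5.01 FPKM), and just outside were LOC110260228 (4.99 FPKM), PDS5A (4.92 FPKM) and LOC110259921 (4.92 FPKM).

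The genes ranged from steady to widely varying across libraries. For 39 of the 87 the highest of the 8 libraries was within 2-fold of the lowest. PRPF38A, named for a splicing factor, ran from 9.01 to 10.4 FPKM in PKP2_het and from 9.02 to 10.3 FPKM in WT, and HNRNPU ran from 26.9 to 29.4 FPKM in PKP2_het and from 25.8 to 28.2 FPKM in WT. The median coefficient of variation over the 87 genes was 22.8% among PKP2_het libraries and 14.5% among WT libraries, against 19.05% and 11.6% over all tested genes. The heat map of the 87 genes shows a few wide rows at its top and bottom and a pale middle.

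**Figure D1:**
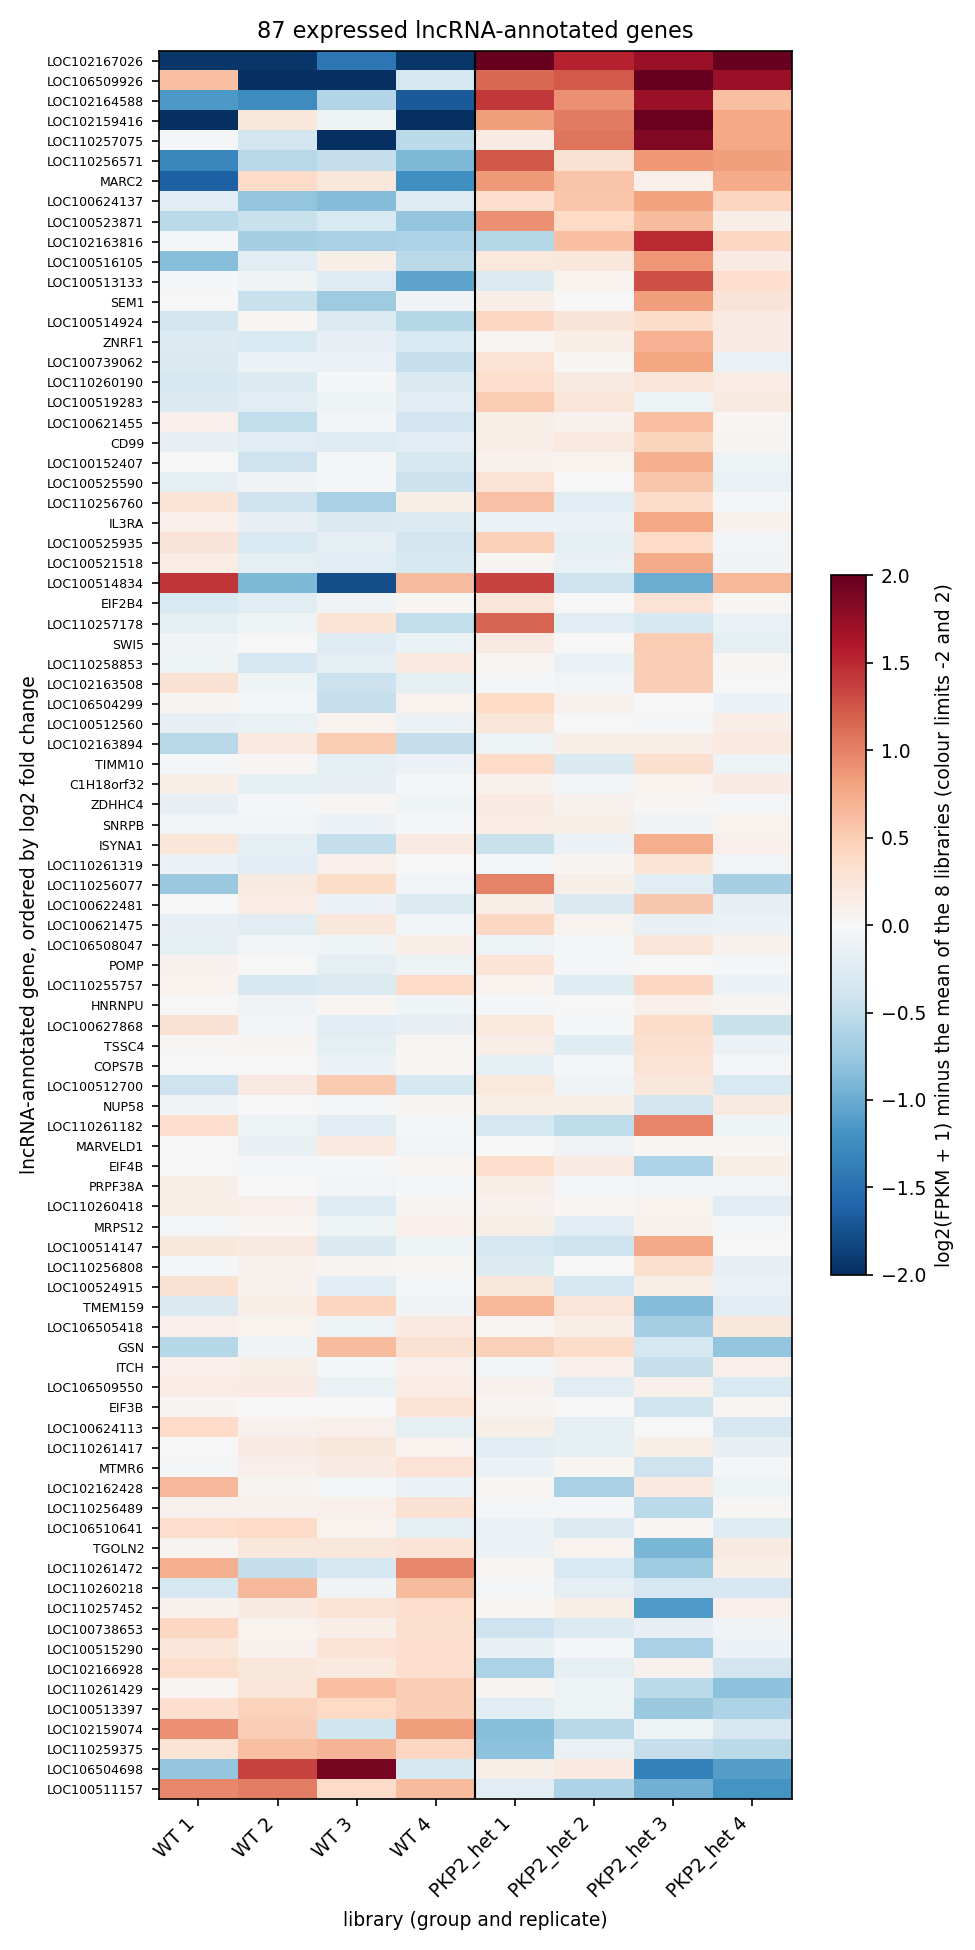
Level of the 87 lncRNA-annotated genes (rows, ordered by log2 fold change) in the 8 libraries (columns), as log2(FPKM + 1) minus the mean of the gene's 8 values, with colours limited to between -2 and 2. The rows at the top and bottom separate the groups, most rows in between are pale, and the column of PKP2_het replicate 3 is darker than its neighbours in many rows.

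Of the 8 most abundant genes, 0 were called by limma in the test described further on, near the 1.86% of all tested genes that were. An unadjusted p under 0.05 was found for 3 (LOC110257075, SEM1 and MARC2), against 12.8% of all tested genes. GSN measured 236, 219, 133 and 97.8 FPKM in PKP2_het replicates 1 to 4 and 114, 162, 264 and 209 FPKM in the WT libraries, and the groups overlapped. EIF4B measured 137, 121, 70.1 and 116 FPKM in PKP2_het and 108, 106, 105 and 111 FPKM in WT, and PKP2_het replicate 3 was its lowest library. Their log2 fold changes, taken on log2(FPKM + 1), were -0.15 ± 0.33 (SE) and 0.0021 ± 0.19, with limma adjusted p-values of 0.867 and 0.998. The signs carry no weight, since each turned when single libraries were left out. GSN was 0.088 without PKP2_het replicate 4, and EIF4B was -0.11 without PKP2_het replicate 1 and -0.26 with libraries scaled to equal sums.

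SEM1 measured 123, 112, 201 and 135 FPKM in PKP2_het and 111, 82.0, 68.3 and 107 FPKM in WT (log2 fold change 0.62 ± 0.22, limma adjusted p 0.259). Every PKP2_het library lay above every WT library, by little in replicates 1 and 2. LOC100512560 lies 6205 bp from TFRC, the transferrin receptor gene, and points away from it. Its level was 103, 87.9, 85.8 and 95.6 FPKM in PKP2_het and 77.9, 79.3, 91.4 and 80.4 FPKM in WT (log2 fold change 0.18 ± 0.12, limma adjusted p 0.575, and -0.091 with libraries scaled to equal sums). LOC100521518, which starts 14 bp from CCDC51, a mitochondrial channel protein gene, ran from 75.9 to 141 FPKM in PKP2_het and from 66.6 to 92.7 FPKM in WT (0.30 ± 0.20, limma adjusted p 0.588).

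LOC110257075, whose sequence matched FAM240C, was abundant and uneven. It measured 107, 203, 346 and 164 FPKM in PKP2_het and 94.3, 74.4, 11.5 and 66.1 FPKM in WT, so that the groups did not overlap but the libraries within each spread widely. The log2 fold change was 1.93 ± 0.61, with a limma adjusted p of 0.193. The other genes with a small protein match gave 27.2 ± 4.83 FPKM (SD, n = 4) in PKP2_het against 19.9 ± 1.13 in WT for LOC100519283 and 15.03 ± 2.81 against 15.9 ± 2.57 for LOC100524915. LOC100515290 had 7.77 ± 1.51 against 11.1 ± 0.934, without overlap, and LOC100514147 had 8.92 ± 4.13 against 8.55 ± 1.59. The limma adjusted p-values of these 4 were 0.206, 0.857, 0.172 and 0.988.

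Differences between the groups were tested with limma on all 10757 genes that reached 1 FPKM in 4 or more libraries, a filter that all 87 genes passed. A gene was called when its Benjamini-Hochberg adjusted p over all tested genes was at most 0.05. Of the 87 genes, 5 were called higher in PKP2_het, where 1.15% of all tested genes were, and 3 were called lower, where 0.707% were. Among tested genes with a mean of at least 5 FPKM the shares were 0.843% and 0.533%. In either direction this is 9.195% of the 87 genes, against 1.86% of all tested genes, 1.38% of tested genes with a mean of at least 5 FPKM and 1.45% of tested protein-coding genes. An unadjusted p under 0.05 was found for 28 of the 87, or 32.2%, against 12.8% of all tested genes. The 2 groups of libraries did not overlap for 15 genes that were higher in PKP2_het and 7 that were lower, against 4.86% and 4.33% of all tested genes and 4.8% and 4.01% of those with a mean of at least 5 FPKM.

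The mean threshold was met in both groups by 72 genes, only in PKP2_het by 8 and only in WT by 7. Of the 72 genes, 3 were called, and of the 15 others, 5 were. The 15 include genes that entered through the group where they are high, so the counts above are a description of these genes and not support for a difference of the class. Over the 87 genes, 56 log2 fold changes were positive and 31 negative, with a median of 0.11 against -0.022 over all tested genes. With libraries scaled to equal sums of FPKM, which moved the median of all tested genes to -0.23, 28 were positive and 59 negative with a median of -0.14. The calls under that scaling were 4 higher and 1 lower. Without PKP2_het replicate 3, 50 were positive and 37 negative, with a median of 0.074 against 0.0067 over all tested genes.

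Of the 27 genes with a protein symbol 0 were called by limma (0 also by voom on the recovered fragments), where 1.86% of all tested genes were, so a count of 0 among 27 is near that share. An unadjusted p under 0.05 was found for 5 of them, against 12.8% of all tested genes. Their log2 fold changes ran from -0.39 to 1.13 with a median of 0.067, and 3 of them, SEM1, CD99 and ZNRF1 (a ubiquitin ligase), were higher in every PKP2_het library than in any WT library, against 4.86% of all tested genes. CD99, placed on chromosome Y, had the lowest adjusted p of these genes, 0.128, with 37.4, 39.0, 46.6 and 35.4 FPKM in PKP2_het and 30.4, 29.3, 28.1 and 29.2 FPKM in WT. All 8 called genes had placeholder names, and 7 of the 8 had no protein match; whether the kinds differ was not tested. The plot of the called genes by library shows each of them.

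**Figure D2:**
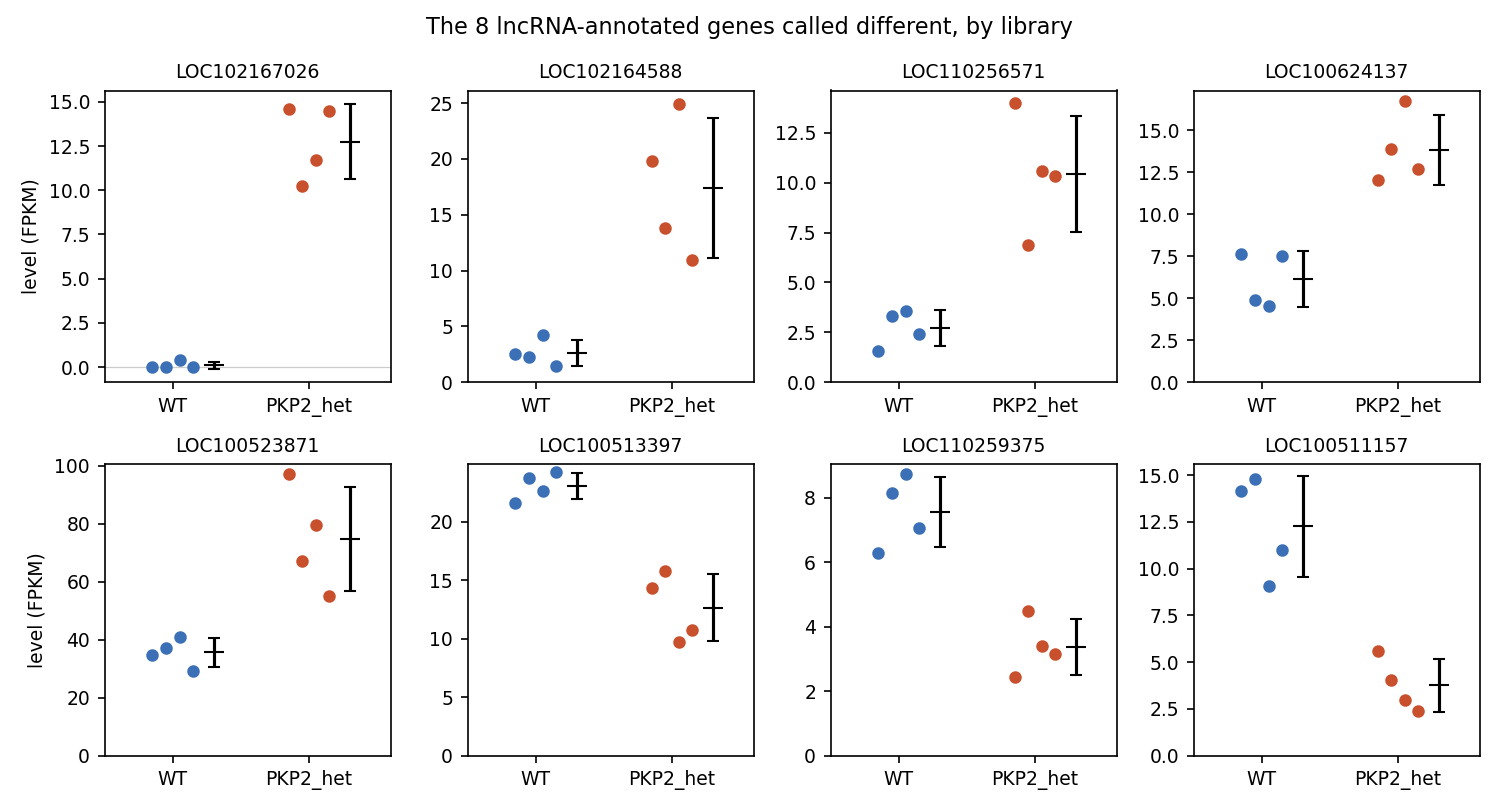
Level in FPKM (vertical axis from 0, except that the first panel starts just below 0) of the 8 called lncRNA-annotated genes in the 4 WT (blue) and 4 PKP2_het (red) libraries, with the mean and SD beside the points. In each panel the groups do not overlap; LOC102167026 is at or near 0 in WT.

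LOC102167026 showed the widest separation. It measured 14.6, 10.2, 11.7 and 14.5 FPKM in PKP2_het replicates 1 to 4 and 0, 0, 0.415 and 0 FPKM in the WT libraries. In fragments this was 620 in all of PKP2_het and 6 in all of WT, the latter with an exact 95% Poisson interval of 2.20 to 13.1 that covers counting error only. Where the WT libraries had 0 fragments, up to 0.308, 0.220 and 0.224 FPKM (3 fragments) remain possible. The log2 fold change was 3.64 ± 0.15 (SE) with a limma adjusted p of 7.69e-06, and the gene was called in all 16 alternative analyses. With WT near 0 the size of this value is set by the pseudocount and is no bound: it was 4.50 with a pseudocount of 0.5, 6.4 with 0.1 and 7.41 with voom.

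LOC102167026 lies on chromosome 5 (24703594 to 24712895, minus strand, Sscrofa11.1), with a gene model of 447 exonic bases. Its start is 114 bp from the start of SLC16A7, which encodes a monocarboxylate transporter, and the 2 genes point away from each other. SLC16A7 measured 8.39, 10.6, 4.77 and 11.8 FPKM in PKP2_het and 6.93, 9.22, 11.6 and 9.18 FPKM in WT, and the groups overlapped (log2 fold change -0.09 ± 0.24, limma adjusted p 0.898). No other gene within 300 kb was tested. PKP2 is on the same chromosome, from 41424687 to 41509590.

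LOC102164588 measured 19.8, 13.8, 24.96 and 10.9 FPKM in PKP2_het and 2.54, 2.27, 4.22 and 1.45 FPKM in WT. The lowest PKP2_het library was above the highest WT library, and the log2 fold change was 2.33 ± 0.28 with a limma adjusted p of 0.00291. The gene lies on chromosome 2 (136931805 to 136957532, minus strand) and overlaps SEC24A, which encodes a coat protein of vesicles leaving the endoplasmic reticulum and lies on the other strand. Its Swiss-Prot match is also SEC24A. SEC24A itself was at 2.49 ± 0.273 FPKM in PKP2_het and 2.35 ± 0.185 in WT (SD, n = 4 each, log2 fold change 0.06 ± 0.09). No source states that fragments were counted by strand, so reads of the overlapping exons of such pairs cannot be told apart. At its other side LOC102164588 starts 94 bp from CAMLG, a gene for an endoplasmic reticulum protein, which had a log2 fold change of 0.10 ± 0.14.

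LOC110256571 and OLFM1, the gene of the secreted glycoprotein olfactomedin 1, both rose. LOC110256571 (chromosome 1, 274276970 to 274280750, plus strand) measured 14.0, 6.86, 10.6 and 10.4 FPKM in PKP2_het and 1.57, 3.34, 3.57 and 2.41 FPKM in WT, a log2 fold change of 1.62 ± 0.23 (limma adjusted p 0.0066, and 0.00531 to 0.0593 over the alternatives, called in 15 of 16). OLFM1 lies 15648 bp upstream on the same strand and measured 26.6, 19.96, 13.8 and 17.3 FPKM in PKP2_het and 5.36, 6.54, 3.42 and 5.58 FPKM in WT. Neither gene's groups overlapped, and OLFM1 had a log2 fold change of 1.70 ± 0.21 with a limma adjusted p of 0.00374 (0.0579 with libraries scaled to equal sums, and 0.000437 to 0.0579 over its alternatives). Fragments of an unannotated long OLFM1 transcript and of a separate RNA cannot be told apart in a table of genes.

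LOC100511157 and P2RY1, the gene of an ADP receptor of platelets and vessel cells, both fell. LOC100511157 (chromosome 13, 93051936 to 93053724, plus strand) measured 5.597, 4.07, 2.99 and 2.38 FPKM in PKP2_het and 14.2, 14.8, 9.09 and 10.99 FPKM in WT, a log2 fold change of -1.50 ± 0.22 (limma adjusted p 0.00826). P2RY1 lies 54234 bp upstream on the same strand and measured 0.651, 0.818, 0.890 and 0.798 FPKM in PKP2_het against 12.9, 16.2, 7.07 and 10.1 FPKM in WT. Its log2 fold change was -2.76 ± 0.20 with a limma adjusted p of 0.000139. Both genes were called in every alternative analysis that tested them. Within 300 kb of the 8 called genes, OLFM1 and P2RY1 were the only other genes called by limma.

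LOC100624137 and LOC100523871 rose about as much as each other. LOC100624137 (chromosome 10, 66433251 to 66437168, minus strand) measured 12.02, 13.9, 16.8 and 12.7 FPKM in PKP2_het and 7.66, 4.89, 4.54 and 7.49 FPKM in WT (log2 fold change 1.07 ± 0.18, limma adjusted p 0.0139). Its nearest expressed protein-coding gene is KLF6, a transcription factor gene 51277 bp away, with a log2 fold change of -0.09 ± 0.21. Among the 16 alternatives the limma adjusted p ran from 0.00246 to 0.362, and, apart from a fit with a replicate term, it was above 0.05 with libraries scaled to equal sums (0.362) and without WT replicate 2 (0.0546).

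LOC100523871 (chromosome 16, 39369213 to 39370893, plus strand) lies within PDE4D, which encodes a cyclic AMP phosphodiesterase on the other strand, and was the most abundant of the called genes. It measured 97.2, 67.0, 79.4 and 55.1 FPKM in PKP2_het and 34.7, 37.2, 41.1 and 29.3 FPKM in WT (log2 fold change 1.03 ± 0.18, limma adjusted p 0.0208). PDE4D was at 3.60 ± 1.31 FPKM in PKP2_het and 3.57 ± 0.349 in WT (SD, n = 4 each), with a log2 fold change of -0.04 ± 0.19. The call of LOC100523871 was lost with libraries scaled to equal sums (limma adjusted p 0.688), without PKP2_het replicate 2 (0.0510), and without WT replicates 1, 2 and 4 in turn (0.0648, 0.0655 and 0.0790), in a range of 0.00778 to 0.688 over its alternatives.

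LOC110259375 and LOC100513397, both on chromosome 2, fell. LOC110259375 (77014564 to 77019322, plus strand) measured 2.43, 4.51, 3.41 and 3.15 FPKM in PKP2_het and 6.28, 8.14, 8.74 and 7.08 FPKM in WT, a log2 fold change of -0.98 ± 0.16 (limma adjusted p 0.0118, and 0.0056 to 0.0875 over the alternatives, the highest with libraries scaled to equal sums). LOC100513397 (68654429 to 68657910, plus strand) measured 14.3, 15.8, 9.75 and 10.7 FPKM in PKP2_het and 21.6, 23.7, 22.7 and 24.2 FPKM in WT, so that its WT libraries lay close together. Its log2 fold change was -0.84 ± 0.15 with a limma adjusted p of 0.0231. Its call was lost in 7 of 16 alternatives. Apart from a fit with a replicate term these were limma adjusted p-values of 0.306 with libraries scaled to equal sums, 0.0729 without PKP2_het replicate 4, and 0.0574, 0.0832, 0.0597 and 0.0867 without WT replicates 1 to 4 in turn, in a range of 0.00826 to 0.306. The nearest expressed protein-coding genes, C2H19orf25 and the zinc finger gene LOC100738906, had log2 fold changes of 0.22 ± 0.11 and -0.07 ± 0.09.

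Genes next in the order of p were not called. LOC100514924 had 24.99 ± 2.04 FPKM in PKP2_het and 16.3 ± 3.07 in WT (SD, n = 4 each), and its limma adjusted p of 0.0745 ranged from 0.0486 (without WT replicate 2) to 0.733 over the alternatives. LOC110260190 overlaps TRDN, the gene of triadin in the calcium release complex of muscle, on the other strand. It had 57.8, 51.4, 53.4 and 50.1 FPKM in PKP2_het against 36.1, 37.2, 44.2 and 36.9 FPKM in WT, without overlap (log2 fold change 0.45 ± 0.11, limma adjusted p 0.0897), while TRDN was at 15.7 ± 1.31 and 15.8 ± 0.258 FPKM. LOC100738653, which lies 490 bp from PARP4 on the same strand and matches the PARP4 protein, had 4.05 ± 0.521 FPKM in PKP2_het and 5.96 ± 0.808 in WT (log2 fold change -0.46 ± 0.12), and PARP4 had a log2 fold change of -0.50 ± 0.15. Their limma adjusted p-values were 0.109 and 0.178.

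Without PKP2_het replicate 3, limma called 7 of the 87 genes higher (1.81% of all tested genes) and 4 lower (1.11%). All 8 genes remained called, and LOC100519283 and ZNRF1 joined those that were higher and LOC102166928 those that were lower. LOC102166928 measured 11.5, 16.1, 19.8 and 14.2 FPKM in PKP2_het and 23.9, 21.8, 21.3 and 23.6 FPKM in WT. The 3 genes were chosen after their values were seen. With library quality weights, which give outlying libraries less say, the counts were 11 higher (3.41% of all tested genes) and 7 lower (2.71%).

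Some wide ranges lay within a group as much as between groups. LOC106509926 (chromosome 3, 132456725 to 132458237) measured 22.6, 24.2, 50.3 and 34.5 FPKM in PKP2_het and 15.2, 0.181, 0 and 7.38 FPKM in WT. The WT libraries thus ran from 0 fragments, which allow up to 0.102 FPKM, to 15.2 FPKM. The lowest PKP2_het library was at 22.6 FPKM, so the groups did not overlap. Its log2 fold change of 3.18 ± 0.83 had a limma adjusted p of 0.109, which was 0.0169 at the lowest and 0.277 at the highest of the 16 alternatives, and it was called in 3 of them.

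LOC100514834 and LOC106504698, named after their values were seen, varied widely within the groups. LOC100514834 measured 11.9, 2.83, 1.55 and 7.004 FPKM in PKP2_het replicates 1 to 4 and 12.7, 1.73, 0.491 and 6.84 FPKM in the same WT replicates. The order of replicates was the same in both groups, although over all tested genes the deviations of same-numbered libraries correlated at -0.39 to 0.20. LOC106504698 measured 5.45, 5.87, 1.33 and 1.80 FPKM in PKP2_het and 2.49, 14.3, 21.2 and 3.77 FPKM in WT. Of its WT libraries, 2 lay within the PKP2_het range and the others above it. LOC110257178 was at 33.4 FPKM in PKP2_het replicate 1 and between 9.98 and 17.6 FPKM in each other library.

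Several of the 87 genes sit beside each other. On chromosome 10, LOC102159416 (10145763 to 10153615) ends 3117 bp before MARC2 (10156732 to 10194371), and MARC2 overlaps MARC1 by 3613 bp, all on the plus strand. MARC1 and MARC2 encode the amidoxime reducing enzymes of the outer mitochondrial membrane, and reads of 2 such related, overlapping genes may be split uncertainly. LOC102159416 was at 0 FPKM in WT replicates 1 and 4 (up to 0.103 and 0.0747 FPKM remain possible), at 5.11 and 3.85 FPKM in WT replicates 2 and 3, and at 8.36, 9.77, 19.5 and 7.96 FPKM in PKP2_het.

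MARC2 was at 21.1 and 28.4 FPKM in WT replicates 1 and 4, at 88.9 and 79.3 FPKM in WT replicates 2 and 3, and at 123, 101, 72.8 and 114 FPKM in PKP2_het. MARC1 was at 2.60 and 2.25 FPKM in WT replicates 1 and 4, at 8.96 and 6.58 FPKM in WT replicates 2 and 3, and at 11.01, 10.04, 9.04 and 11.9 FPKM in PKP2_het. All 3 neighbours were thus lowest in the same 2 WT libraries. Their log2 fold changes were 2.32 ± 0.61, 1.13 ± 0.43 and 1.07 ± 0.33, with limma adjusted p-values of 0.111, 0.302 and 0.185.

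On chromosome 2, 2 of the 87 genes lie next to each other. These are LOC102163816 (6749941 to 6794116, plus strand, 10263 exonic bases, the longest of the 87) and LOC100513133 (6803590 to 6811708, minus strand, 7928 exonic bases, nearly its whole span).

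LOC100513133 measured 116, 148, 347 and 177 FPKM in PKP2_het and 137, 133, 118 and 67.0 FPKM in WT. LOC102163816 measured 12.3, 29.0, 54.5 and 25.3 FPKM in PKP2_het and 18.5, 11.5, 11.7 and 11.8 FPKM in WT. Both were highest in PKP2_het replicate 3, and for both the groups overlapped through PKP2_het replicate 1. The log2 fold changes were 0.71 ± 0.34 and 0.97 ± 0.37, with limma adjusted p-values of 0.429 and 0.292.

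FRMD8, which encodes a partner of the iRhom proteins and lies 11256 bp from LOC100513133 on the same strand, had 2.89 ± 0.231 FPKM in PKP2_het against 4.94 ± 0.977 FPKM in WT (SD, n = 4 each, log2 fold change -0.60 ± 0.12, limma adjusted p 0.0434). The map of 5 loci shows these neighbours and their values.

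**Figure D3:**
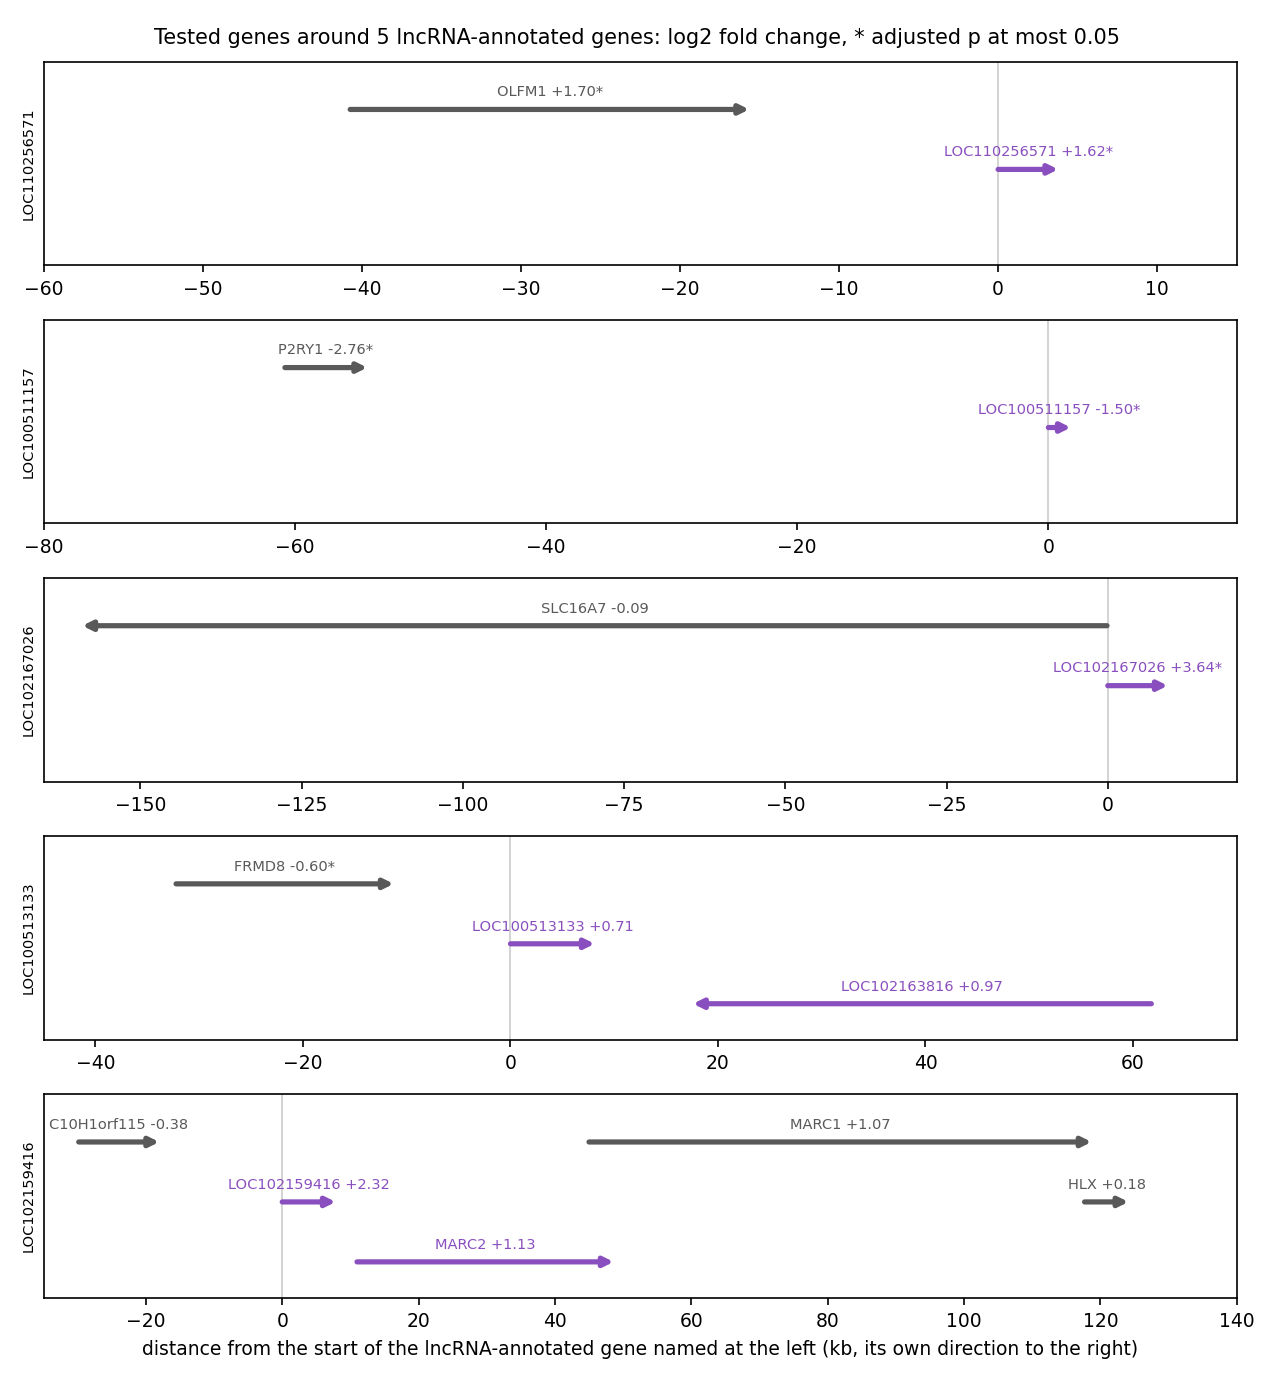
Tested genes (arrows, in the direction of transcription) around 5 lncRNA-annotated genes, against distance in kb from the start of the gene named at the left; purple marks lncRNA-annotated genes and grey protein-coding genes, and each label gives the log2 fold change, with a star for an adjusted p of at most 0.05. OLFM1 and P2RY1 carry the sign of their neighbours, SLC16A7 is near 0, and the 2 genes beside FRMD8 have positive values where FRMD8 has a negative one.

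Paraspeckle proteins, which gather on a nuclear lncRNA, were listed as a group. All 17 tested members, HNRNPA1 (-0.22 ± 0.12), RBMX (0.25 ± 0.15) and HNRNPM (-0.15 ± 0.10) among them with the smallest p, missed the threshold, and 0 had an unadjusted p under 0.05. Of the 17, 10 had positive and 7 negative log2 fold changes, with a median of 0.056. The nuclear exosome and its adaptors, which degrade many noncoding transcripts, had 0 of 24 tested members called by limma and 3 with an unadjusted p under 0.05. These were EXOSC2 (0.50 ± 0.14), DIS3 (-0.28 ± 0.10) and EXOSC9 (0.29 ± 0.11), and the median of the list was 0.020. Nonsense-mediated decay factors, which remove transcripts with early stop codons, had 0 of 15 called by limma and 0 with an unadjusted p under 0.05, and SMG6 (-0.17 ± 0.08), UPF1 (-0.19 ± 0.12) and SMG5 (-0.26 ± 0.16) had the smallest p. Voom on the recovered fragments also called 0 genes of the 3 lists. The medians stand beside -0.022 over all tested genes. Limma called 1.86% of all tested genes, and 12.8% had an unadjusted p under 0.05. In lists of this size, counts of 0 called and of 3 in 24 are near those shares.

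The nearest expressed protein-coding gene was found for 86 of the 87 genes and gave 85 distinct neighbours. The LOC110258853 scaffold had none. Gene bodies overlapped on opposite strands in 16 pairs and on the same strand in 1. The other 69 pairs lay apart by a median of 14312 bp, from 12 to 1521878 bp, and 26 of them by at most 5000 bp. Of the 69, 22 pointed away from each other, 15 towards each other and 32 the same way.

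Of the 85 neighbours 4 were called by limma, or 4.71%, against 1.45% of tested protein-coding genes. OLFM1 rose, and P2RY1, FRMD8 and DCLRE1A, a DNA crosslink repair gene, fell. DCLRE1A measured 4.11, 4.23, 2.77 and 3.35 FPKM in PKP2_het and 5.76, 7.06, 6.32 and 6.30 FPKM in WT (log2 fold change -0.68 ± 0.13, limma adjusted p 0.0250). LOC110256760, which overlaps it on the other strand and matches its protein, measured 8.15, 4.25, 6.89 and 4.95 FPKM in PKP2_het and 6.42, 3.61, 2.89 and 5.62 FPKM in WT, and its groups overlapped.

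FRMD8 and DCLRE1A were close to the threshold. Both missed it without PKP2_het replicate 4 (limma adjusted p 0.103 for FRMD8 and 0.0759 for DCLRE1A) and without WT replicate 1 (0.0713 and 0.0507), 2 (0.122 and 0.0975), 3 (0.0563 and 0.0677) or 4 (0.0924 and 0.0839). FRMD8 also missed it without PKP2_het replicate 1 (0.127) or 2 (0.109), so that the count of called neighbours was 2 to 4 when single libraries were left out. Over all alternatives the limma adjusted p ran from 0.00868 to 0.227 for FRMD8 and from 0.00421 to 0.364 for DCLRE1A.

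As a description across pairs, which share their 8 libraries, the log2 fold changes of gene and neighbour had a Pearson r of 0.23 and a Spearman rho of -0.0059 (86 pairs), and the sign was the same in 37 pairs. The Pearson value rests on the OLFM1 and P2RY1 pairs. Without them r was -0.033 and rho -0.074 over 84 pairs. For the 17 overlapping pairs r was 0.42 and rho 0.30, for the 26 pairs at most 5000 bp apart 0.051 and 0.091, and for the 43 pairs farther apart 0.25 and -0.20. The overlapping pairs include MARC2 and MARC1. The scatter of the pairs shows the points of OLFM1, P2RY1 and MARC1 standing alone.

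**Figure D4:**
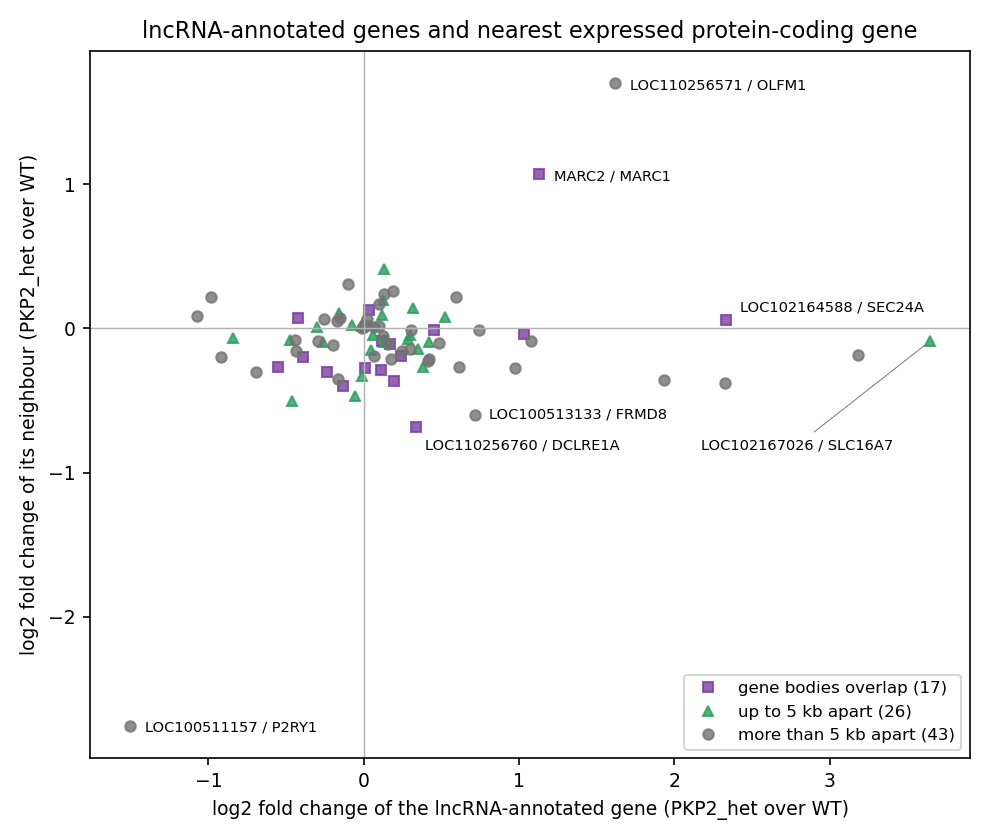
Log2 fold change (PKP2_het over WT) of each lncRNA-annotated gene (horizontal axis) and of its nearest expressed protein-coding gene (vertical axis), 86 pairs, with the symbol showing whether the gene bodies overlap (17), lie at most 5 kb apart (26) or farther apart (43). The pairs with OLFM1, P2RY1 and MARC1 stand away from the rest, and LOC102167026 and LOC102164588 lie far to the right with neighbours near 0.

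Among the pairs taken by the smallest gap, 10 pointed away from each other with starts at most 345 bp apart, the arrangement of a shared promoter region. Among these 10 the closest starts were those of LOC102162428 and PTPN4 (12 bp), LOC100521518 and CCDC51 (14 bp), LOC110260418 and ZNF7 (76 bp) and LOC106510641 and FABP3 (97 bp). Pairs of this arrangement whose lncRNA-annotated gene overlaps another protein-coding gene were not counted. Among them are LOC106505418 and WDR5B (26 bp) and the called LOC102164588 and CAMLG (94 bp). FABP3 encodes the heart's fatty acid-binding protein and was at 1032 ± 112 FPKM in PKP2_het and 1030 ± 140 in WT (SD, n = 4 each), while LOC106510641 was at 9.35, 8.42, 10.6 and 8.60 FPKM in PKP2_het and 13.5, 13.7, 10.9 and 8.91 FPKM in WT. LOC102167026 was the only one of these 10 lncRNA-annotated genes to be called by limma, where 1.86% of all tested genes were. Of their 10 neighbours 0 were called by limma, against 1.45% of tested protein-coding genes, so this count is near that share. An unadjusted p under 0.05 was found for 1 of the neighbours, against 12.8% of all tested genes. The sign was the same in 3 of the 10 pairs.

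PKP2_het replicate 3 deviated with gene length. It was the highest of the 8 libraries for 33 of the 87 genes and the lowest for 15. Of the 34 genes with fewer than 1000 exonic bases it was the highest for 17 and the lowest for 0. Of the 22 genes with at least 3000 bases it was the lowest for 11 and the highest for 7, among them LOC102163816 and LOC100513133.

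Against the mean of the other 3 PKP2_het libraries on log2(FPKM + 1), the median deviation of this library was 0.44 for the short genes, 0.095 for those between 1000 and 3000 bases and -0.38 for the long ones. Over all tested genes the medians were 0.37 below 1000 bases and -0.16 from 3000 bases. The part of this library's deviation in the uncalled differences was not tested beyond the values without it given above. The plot of deviation against gene length shows both ends.

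**Figure D5:**
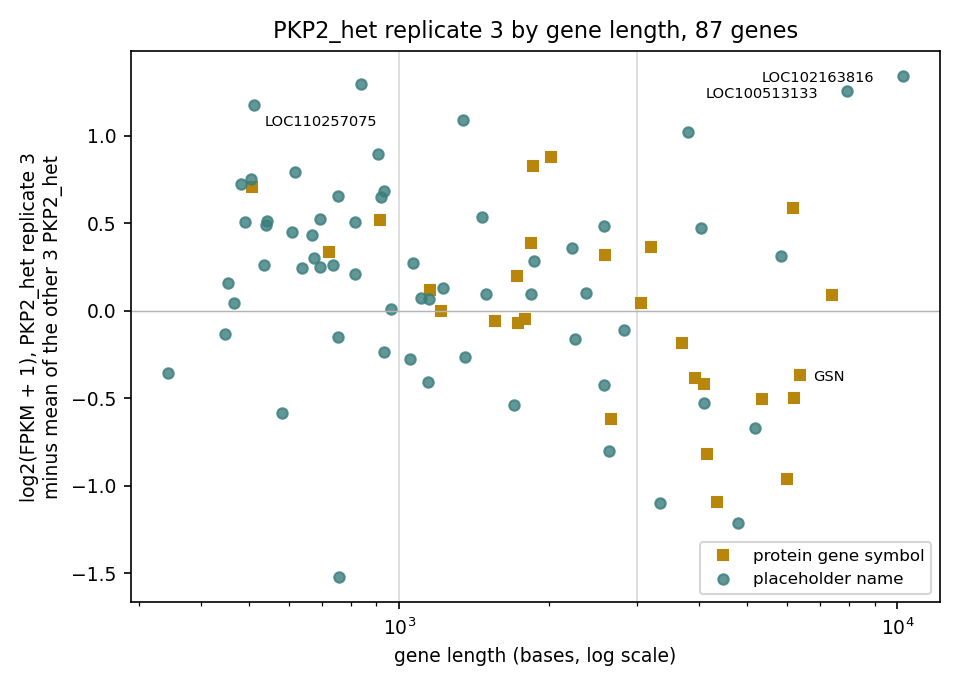
Level of the 87 lncRNA-annotated genes in PKP2_het replicate 3 minus the mean of the other 3 PKP2_het libraries, on log2(FPKM + 1) (vertical axis), against exonic gene length in bases (horizontal log axis), with vertical lines at 1000 and 3000 bases; squares carry a protein gene's symbol and circles a placeholder name. Short genes lie mostly above 0 (median 0.44) and long genes mostly below (median -0.38), with LOC102163816 and LOC100513133 above 0 among the longest.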

How the data were processed

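RNA from right ventricular tissue was sequenced as 150 bp read pairs and aligned, per the labels' protocols, with HISAT2 2.0.5. The authors deposited 1 table of FPKM values; the counting program, its strand setting and the annotation release are unknown here, as they are not given in the sources. Multiplying FPKM by gene length, and dividing by a step estimated for each library from these values, gave whole fragments for 100% of values (within 0.01). The 10757 genes that reached 1 FPKM in 4 or more libraries were compared on log2(FPKM + 1) with limma 3.58.1 (R 4.3.3), with a variance trend, two-sided, with Benjamini-Hochberg adjustment. The pseudocount of 1 makes fold changes of low genes too small. The fit was also run on simulated fragments, with an outcome not reported here. That simulation gave both groups the same spread and had no outlying library such as PKP2_het replicate 3, so it does not cover those features. Neighbours are tested protein-coding genes with the smallest gap between gene bodies. Members and lists were chosen with earlier results of these data known. Genes named are the called ones, the next by p up to 12, the 8 most abundant and their neighbours; others (such as LOC102163816, LOC102159416, CD99 and the stable and wide-ranging genes) were chosen after their values were seen. Alternatives were other pseudocounts, filters, scalings, weights, voom on recovered fragments, a replicate term, other member thresholds, neighbours by start and leaving out each library. Values of some neighbouring genes are not reported here.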

Additional observations from a re-analysis of the deposited data

Results flagged for a closer look

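In 120 sets of 4 libraries (60 genes named here, 2 groups), 13 had 1 library far from the other 3 by Dixon's 95% criterion; chance gives about 1 in 20, but some of the genes were named for their wide ranges, so the count is not read against it. In WT, LOC102167026 was at 0.415 FPKM in replicate 3 and at 0 in the others, LOC110260190 at 44.2 FPKM in replicate 3 against 36.1 to 37.2, LOC102163816 at 18.5 FPKM in replicate 1 against 11.5 to 11.8, and LOC110256489 at 6.57 FPKM in replicate 4 against 5.45 to 5.54. PKP2_het replicate 3 was the distant library for LOC102159416 (19.5 FPKM against 7.96 to 9.77), ZNRF1 (19.5 against 11.98 to 13.2), LOC110256489 (3.19 against 4.96 to 5.19) and LOC110257452 (19.2 against 44.2 to 46.8). PKP2_het replicate 1 was the distant library for LOC110257178 (33.4 FPKM against 11.4 to 13.02), POMP (57.6 against 46.1 to 47.7), PRPF38A (10.4 against 9.01 to 9.12) and SNX17 (22.8 against 20.01 to 20.04). FABP3 was at 864 FPKM in PKP2_het replicate 2 against 1079 to 1097 in the others.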

How the results depend on the processing

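All 8 called genes kept their direction in all 16 alternative analyses, and 8 of 8 stayed called with other pseudocounts, other filters, voom, library weights and without PKP2_het replicates 1 or 3. Genes called higher numbered 5, against 11 with library quality weights, 3 with a replicate block and 1 among lncRNA-annotated genes of at least 10 FPKM; leaving out single libraries gave 4 to 7. Genes called lower numbered 3, against 7 with library weights, 1 with equal sums, 5 among those of at least 3 FPKM and 1 among those of at least 10 FPKM; leaving out single libraries gave 2 to 4. Called neighbours numbered 4, against 2 with a filter on a mean of 5 FPKM (which leaves fewer genes tested), 1 with equal sums, 2 with the replicate block, 6 with library weights and 6 of 85 when the nearest gene was taken by start; leaving out single libraries gave 2 to 4. No source says that the replicate numbers pair libraries. Same-numbered libraries deviated from their group means with correlations of -0.39, 0.033, -0.23 and 0.20. These include the outlying PKP2_het replicate 3 and do not settle whether same-numbered libraries share a batch. With the block, 5 of 8 genes stayed called (LOC110256571, LOC100624137 and LOC100513397, at limma adjusted p-values of 0.0593, 0.0975 and 0.0855, did not). PKP2 ranged from -0.77 to -0.48 without single libraries. GSN ranged from -0.37 to 0.088 and EIF4B from -0.11 to 0.21 without single libraries, and EIF4B was -0.26 with equal sums. LOC100512560 turned to -0.091 with equal sums. Except where fewer genes or libraries were used, the cause of these shifts was not tested. With 4 libraries a group and 0 to 6 fragments in WT, depth limits the fold of LOC102167026.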
